A study of Mus musculus with 4 samples.

Results

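The genes described here code for proteins of the extracellular matrix, for the proteases that cut it, for the enzymes that crosslink it and for the integrin receptors that bind it. They were chosen by name alone: a spot entered when its only gene symbol was that of a collagen chain, a laminin chain, an integrin subunit, a matrix metalloproteinase (Mmp), a lysyl oxidase (Lox, Loxl), a fibulin (Fbln) or a thrombospondin (Thbs), or was Sparc or Fn1. The rule found 101 of the 11138 genes on the array. These were 37 collagen chains, 10 laminin chains, 4 fibulins, 4 thrombospondins, Sparc, 4 lysyl oxidases, 18 metalloproteinases and 20 integrin subunits. The remaining 3, Itgb1bp1, Itgb1bp2 and Itgb3bp, matched the integrin pattern in spelling but code for other proteins. Fn1, the fibronectin gene, and Col1a2, the second chain of collagen I, were not analysed here.

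The cells were mouse SVEC cells, an established endothelial line grown in culture, exposed to lipopolysaccharide (LPS, the endotoxin of the outer membrane of Gram-negative bacteria) for 24 h or for 4 h, against control cells. Amplified RNA from treated cells and from controls was hybridised together in 2 dyes, on 2 arrays per time, with LPS in Cy5 on the first array and in Cy3 on the second. The labels state a dose of 50 ng/ml on 3 of the 4 arrays, and the array without it is the dye reversal at 4 h. As no label speaks of separate cultures, the arrays at 24 h count as 1 RNA pair with the dyes exchanged, and so do those at 4 h; the SD given with a mean is therefore the spread between 2 arrays and holds no variation between cultures. Each value is a log2 ratio of LPS over control relative to the array's median spot, with the reversed array turned in sign. That direction is likely rather than stated, as it assumes a deposited ratio of Cy5 over Cy3, and the other convention would turn every sign. Ratios carry no level, so the endothelial label could not be checked against marker levels; 10 endothelial markers were measured, with median ratios of -0.06 at 24 h and -0.04 at 4 h. One of them, Cdh5, the cadherin of endothelial junctions, was lower at 4 h, at -4.97 and -1.98, against -0.17 and 0.05 at 24 h; its part in the ratios below was not tested.

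As background, collagens are trimers of chains wound around each other. Fibrillar collagens give tissue its tensile strength, collagen IV and laminins form the basement membrane on which endothelial cells sit, and lysyl oxidases crosslink collagen and elastin outside the cell. Integrins are heterodimers of an alpha and a beta subunit that link matrix proteins to the actin cytoskeleton, and metalloproteinases cut matrix proteins during migration and vessel sprouting.

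The words higher and lower are used for genes whose mean over 2 arrays reached 2-fold from the median spot, with neither array under 1.5-fold in that direction. With 1 RNA pair per time there is no test at a single time. At 24 h, 1 of the 101 genes was higher, against 1.68% of all 11138 genes, and 2 were lower, against 0.799% of all genes. At 4 h, 10 were higher, against 8.74% of all genes, and 5 were lower, against 5.77%. In percent the matrix and adhesion genes stood at 0.99 and 1.98 at 24 h and at 9.9 and 4.95 at 4 h, near the shares of all genes, so the counts are not read as a result about the set. The median ratio over the 101 genes was -0.08 at 24 h and -0.07 at 4 h, beside 0.02 at 24 h and -0.00 at 4 h over all genes. The split of calls depended on the centring. Quantile normalization gave 2 higher and 2 lower at 24 h, against 3.69% and 1.33% of all genes. Centring on abundant transcripts, described further on, gave 3 higher and 86 lower at 4 h, where 1.02% of all genes were then higher and 80.5% lower. A ratio in cultured cells cannot tell fewer cells of a kind from less RNA per cell.

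The arrays of a time differed by a median SD of 0.27 at 24 h and 0.33 at 4 h over the set. Across the 101 genes they correlated at r = 0.18 at 24 h and r = 0.64 at 4 h, where all genes gave 0.10 and 0.48; genes are not independent replicates, and the ratios span a wider range at 4 h. Opposite signs on the 2 arrays were seen for 44 of the 101 genes (43.6%) at 24 h and for 26 (25.7%) at 4 h. Over all genes the shares were 41.8% at 24 h and 31.2% at 4 h. Most ratios were small, with a mean under 0.5 in size for 84 genes at 24 h and for 60 at 4 h. The same held for 8330 and 6719 of all 11138 genes. Each oligonucleotide was printed as 2 spots, and duplicate spots of the 107 oligonucleotides correlated at 0.51 and 0.25 at 24 h and at 0.75 and 0.60 at 4 h. The table used gave no intensities, so faint spots could not be removed.

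**Figure D1:**
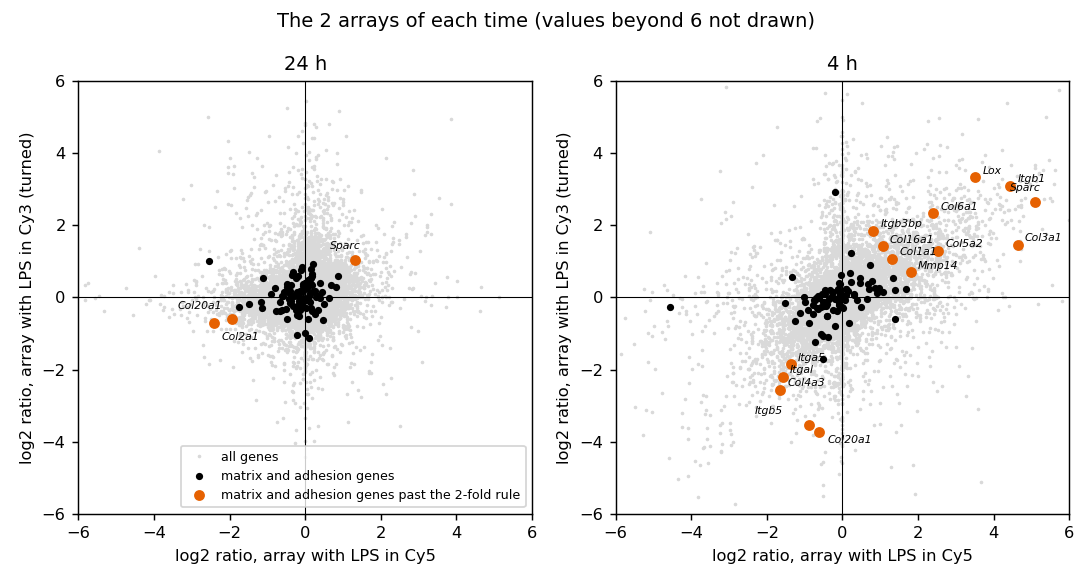
Log2 ratio of LPS over control with LPS in Cy5 (horizontal) and on the array with LPS in Cy3, turned in sign (vertical), at 24 h (left) and 4 h (right). Grey points are all genes, black points the matrix and adhesion genes, and orange points those past the 2-fold rule; over the 101 genes r was 0.18 at 24 h, where most points lie in a round cloud, and 0.64 at 4 h, where they stretch along the diagonal.

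Sparc, a secreted glycoprotein that binds collagen and modulates cell adhesion, was the only one of these genes past the rule in the same upward direction at both times. At 24 h its arrays gave 1.32 and 1.04, a mean of 1.18 ± 0.19 (SD, 2 arrays) or 2.26-fold. At 4 h they gave 5.09 and 2.65, a mean of 3.87 ± 1.73 or 14.7-fold, the 39th highest mean of all genes on the array. The duplicate spots agreed in direction on every array. They read 1.34 and 1.29 and then 0.87 and 1.21 at 24 h, and 5.18 and 5.01 and then 2.74 and 2.57 at 4 h. The ranges of the times did not overlap.

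Among the 9 fibrillar collagen chains, 0 were higher and 1 was lower at 24 h, and 3 were higher and 0 lower at 4 h. Of all genes, 1.68% were higher and 0.799% lower at 24 h, and 8.74% and 5.77% at 4 h. With so few chains the counts are not read as a result about the family. The 3 higher chains, Col3a1, Col5a2 and Col1a1, lost their calls when arrays were centred on abundant transcripts, described further on. Col3a1, the chain of collagen III, gave 0.68 and 0.33 at 24 h and 4.64 and 1.46 at 4 h, with means of 0.51 ± 0.25 and 3.05 ± 2.25. Its spots at 4 h read 4.13 and 5.14 with LPS in Cy5 and 1.46 and 1.45 on the reversed one, so both arrays were above 2-fold and far from each other. Col5a2, a chain of the fibril-initiating collagen V, gave 0.17 and 0.64 at 24 h and 2.53 and 1.28 at 4 h. Col1a1, the main chain of collagen I, lay at -1.12 and 0.55 at 24 h and at 1.32 and 1.08 at 4 h. Its 24 h arrays thus disagreed in sign, while its 4 h arrays agreed closely (1.20 ± 0.17). Col5a1, the partner of Col5a2 in collagen V, did not meet the rule, with a mean of -0.12 at 24 h and 0.81 at 4 h.

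Col2a1, the collagen of cartilage, was the fibrillar chain that was lower at 24 h. Its arrays gave -2.41 and -0.72, a mean of -1.56 ± 1.19, against -1.51 and -0.16 at 4 h, a mean of -0.83 ± 0.95. All 8 spot readings lay below 0, and the array with LPS in Cy5 was the lower one at each time. Col5a3, Col11a1 and Col27a1 had means between -0.10 and 0.20 at 24 h and between -0.20 and 0.40 at 4 h. For Col24a1 every spot at 4 h stood at a ratio of exactly 1, which may mark a spot that was not measured.

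**Figure D2:**
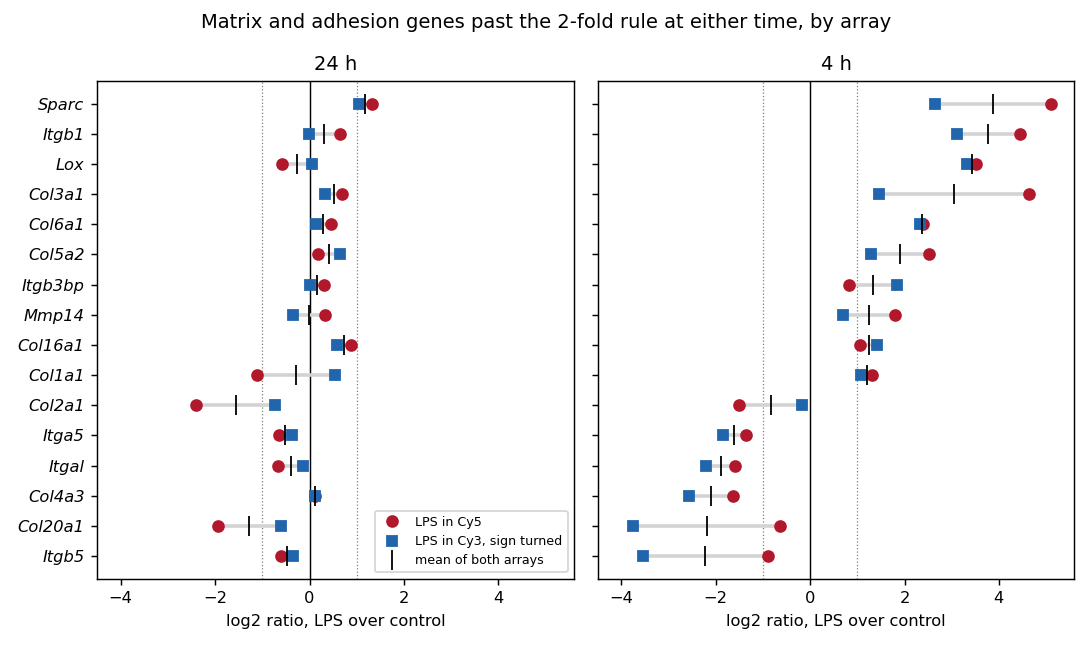
Log2 ratio of LPS over control for the 16 genes past the 2-fold rule at either time, at 24 h (left) and 4 h (right). Circles are the array with LPS in Cy5, squares the reversed array, ticks the mean, and dotted lines mark 2-fold; Sparc, Itgb1, Lox and Col3a1 stand highest at 4 h, and the values of Col1a1, Col16a1, Mmp14 and Itgb3bp at 4 h turn in sign when arrays are centred on abundant transcripts.

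Collagen IV, the network collagen of basement membranes, has 6 chains, all measured. Their genes lie in head-to-head neighbours, Col4a1 with Col4a2, Col4a3 with Col4a4 and Col4a5 with Col4a6, and the chains of a neighbouring pair assemble into shared trimers. None was past the rule at 24 h, and 1, Col4a3, was lower at 4 h, beside 5.77% of all genes. Col4a3 gave 0.12 and 0.12 at 24 h and -1.64 and -2.56 at 4 h, with a 4 h mean of -2.10 ± 0.64. Its neighbour Col4a4 lay on the other side of 0 at each time, at -0.51 and -0.31 at 24 h and at 0.19 and 0.69 at 4 h.

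The endothelial chains Col4a1 and Col4a2 did not meet the rule. Col4a1 gave -0.56 and 0.15 at 24 h and 1.39 and 0.22 at 4 h, while Col4a2 gave -0.90 and 0.08 at 24 h and -0.57 and -1.03 at 4 h. The 4 h ranges of the 2 chains did not overlap, with means of 0.81 ± 0.83 for Col4a1 and -0.80 ± 0.33 for Col4a2. Col4a5 and Col4a6 were also apart at 4 h, at 0.49 and -0.95, and together at 24 h, at -0.28 and -0.29. Among 16 pairs of genes whose proteins assemble, 14 had ranges that did not overlap at 4 h and 8 at 24 h. No such share was computed for other pairs of genes, so ranges apart are not read as a trait of single pairs. Some genes, Itgb1 among them, stand in several of the pairs. The start regions of Col4a1 and Col4a2 are shown because these genes with different ratios start next to each other. In RefSeq's GRCm38.p6 windows, from 250 bases before to 50 after each start, the annotated starts are 21 bases apart on opposite strands and the windows share 78 bases. Col4a1 is given for chr8:11312777-11313076 on the minus strand and Col4a2 for chr8:11312555-11312854 on the plus strand. Capitals mark matches, on either strand, to the GC box (spelled GGGCGG), to the inverted or direct CCAAT box, to the core TATA box (spelled TATAAA), to the AP-1 motif (spelled TGANTCA) and to the NF-kB motif.
Col4a1: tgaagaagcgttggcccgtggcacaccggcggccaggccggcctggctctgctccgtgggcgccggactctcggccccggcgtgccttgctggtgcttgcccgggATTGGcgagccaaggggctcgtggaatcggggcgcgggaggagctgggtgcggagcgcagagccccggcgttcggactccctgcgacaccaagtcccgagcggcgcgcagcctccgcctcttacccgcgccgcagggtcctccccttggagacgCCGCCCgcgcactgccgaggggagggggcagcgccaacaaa
Col4a2: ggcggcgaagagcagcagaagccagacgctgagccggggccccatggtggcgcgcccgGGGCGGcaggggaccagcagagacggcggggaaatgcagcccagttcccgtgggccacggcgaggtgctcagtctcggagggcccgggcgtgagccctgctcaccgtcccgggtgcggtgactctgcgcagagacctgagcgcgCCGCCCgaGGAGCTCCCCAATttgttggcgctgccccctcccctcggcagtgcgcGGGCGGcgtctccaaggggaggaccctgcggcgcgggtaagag

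Col4a1 held 1 GC box and 1 CCAAT match, and Col4a2 held 3 GC boxes, 1 CCAAT and 1 NF-kB match, the last overlapping the CCAAT. The GC box after the start was the same 6 bases in both windows, at 11312812 to 11312817. Neither held TATAAA or TGANTCA. Of the 32851 windows in the table, 35.7% held GGGCGG, 37.4% CCAAT, 13.6% TATAAA, 7.81% TGANTCA and 8.46% the NF-kB motif. Over the 80 windows of 69 of the matrix and adhesion genes the shares were 46.2%, 28.7%, 17.5%, 13.8% and 17.5%. A match describes letters and is not a binding site, and the windows of a gene can overlap.

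Of the other 22 collagen chains, 0 were higher and 1 was lower at 24 h, and 2 were higher and 1 lower at 4 h. Of all genes, 1.68% were higher and 0.799% lower at 24 h, and 8.74% and 5.77% at 4 h. Col6a1, a chain of the microfibrillar collagen VI, gave 0.45 and 0.14 at 24 h and 2.40 and 2.33 at 4 h, a 4 h mean of 2.36 ± 0.05. The other measured chains of the same trimer were not near it at 4 h, Col6a2 at -0.40 ± 0.46 and Col6a3 at -0.31 ± 0.42. Col16a1, a fibril-associated collagen, gave 0.87 and 0.58 at 24 h and 1.06 and 1.41 at 4 h, so that all 4 arrays were above 0. Col20a1 was lower at both times by the rule, at -1.94 and -0.61 at 24 h and at -0.63 and -3.74 at 4 h. Its duplicate spots did not agree: on the reversed array at 4 h they read -6.96 and -0.53, and on the other -1.26 and a ratio of exactly 1. Col9a2, a cartilage collagen, gave -1.76 and -0.26 at 24 h and 0.79 and 0.46 at 4 h, so the second 24 h array kept it from the rule. Col18a1, the source of endostatin, had means of -0.64 at 24 h and -0.41 at 4 h.

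None of the 10 laminin chains met the rule at either time; their means ran between -0.83 and 0.47 at 24 h and between -0.49 and 0.96 at 4 h. Among chains of endothelial basement membranes, Lama4 gave 0.25 and 0.18 at 24 h and -0.20 and -0.79 at 4 h. Lama5 gave -0.05 and 0.18 at 24 h and 0.66 and 0.38 at 4 h. Lamc1, the gamma chain most laminins share, gave 0.50 and -0.17 at 24 h and 1.34 and 0.55 at 4 h. The mean farthest from 0 was that of the beta chain Lamb1 at 24 h (-1.50 and -0.17) and of the beta chain Lamb2 at 4 h (1.67 and 0.24). The 4 fibulins, which join elastic fibres and basement membranes, had means between -0.14 and -0.07 at 24 h and between -1.11 and -0.26 at 4 h. All 4 were below 0 on both arrays at 4 h, with Fbln5, an elastic fibre organiser, lowest at -0.51 and -1.72, against 0.15 and -0.31 at 24 h. The 4 thrombospondins lay between -0.14 and 0.16 at 24 h and between -0.30 and 0.19 at 4 h, with Thbs4 farthest from 0 at 24 h and Thbs3 at 4 h. For Thbs1, an inhibitor of angiogenesis with a mean of -0.13 at each time, 1 of its 2 oligonucleotides read near 0 on every array.

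**Figure D3:**
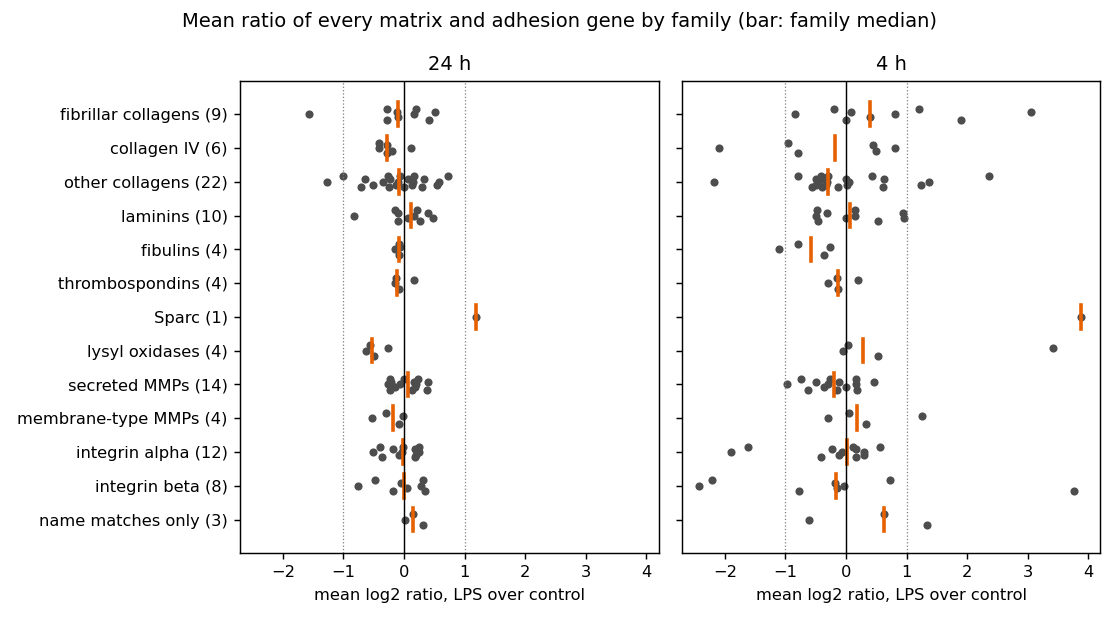
Mean log2 ratio of LPS over control of each gene, by family with the number of genes, at 24 h (left) and 4 h (right); orange bars are family medians and dotted lines mark 2-fold. Family medians stay within 2-fold apart from Sparc, which stands alone in its row, and single genes such as Lox and Itgb1 lie far from their families at 4 h.

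Lox, the enzyme that starts the crosslinking of collagen and elastin, stood apart from its own family at 4 h. Its arrays gave -0.58 and 0.05 at 24 h, a mean of -0.27 ± 0.45, and 3.52 and 3.33 at 4 h, a mean of 3.42 ± 0.14 or 10.7-fold. The duplicate spots at 4 h read 3.89 and 3.15 where LPS was in Cy5 and 3.25 and 3.40 on the reversed array. Loxl1, Loxl2 and Loxl3, paralogues of Lox, had means of -0.50, -0.57 and -0.63 at 24 h and 0.03, 0.53 and -0.05 at 4 h. Loxl2 by array gave -0.77 and -0.37 at 24 h and 0.92 and 0.13 at 4 h, and its 2 oligonucleotides differed at 4 h, at 1.02 and 0.04.

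Of the 18 metalloproteinases, 0 met the rule at 24 h and 1 was higher at 4 h, beside 8.74% of all genes. That gene was Mmp14, the membrane-anchored enzyme MT1-MMP that cuts collagen at the cell surface and activates Mmp2. It gave 0.33 and -0.36 at 24 h and 1.81 and 0.70 at 4 h, a 4 h mean of 1.25 ± 0.78. The other membrane-type genes Mmp16, Mmp17 and Mmp24 had means between -0.54 and -0.08 at 24 h and between -0.30 and 0.33 at 4 h. The 14 enzymes grouped here as secreted, meaning all those outside the membrane-type list, spanned -0.26 to 0.39 at 24 h and -0.98 to 0.46 at 4 h. The gelatinase Mmp2 gave -0.15 and -0.27 at 24 h and 0.31 and 0.06 at 4 h. The other gelatinase, Mmp9, gave -0.08 and -0.06 at 24 h and -0.71 and -0.01 at 4 h, and the stromelysin Mmp3 gave 0.39 and -0.02 at 24 h and 0.10 and 0.24 at 4 h. Among these 14 enzymes Mmp23 stood farthest from 0 at 24 h, at 0.18 and 0.60. The lowest at 4 h was the collagenase Mmp1a, at -0.73 and -1.23, which missed 2-fold.

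None of the 20 integrin subunits met the rule at 24 h, and at 4 h 1 was higher and 3 were lower. Of all genes, 8.74% were higher and 5.77% lower at 4 h. Itgb1, the beta subunit shared by most matrix-binding integrins, gave 0.64 and -0.01 at 24 h, a mean of 0.31 ± 0.45. At 4 h it gave 4.44 and 3.10, a mean of 3.77 ± 0.94 or 13.6-fold, the 48th highest of all genes. Its spots at 4 h read 4.15 and 4.72 with LPS in Cy5 and 3.09 and 3.12 on the reversed one. Itga5, which pairs with Itgb1 alone to form the fibronectin receptor, gave -0.66 and -0.37 at 24 h and -1.36 and -1.85 at 4 h. All 8 of its spot readings were below 0, with a 4 h mean of -1.61 ± 0.35. The subunits of this receptor had ratios of opposite sign at 4 h, as did Itga6 (-0.12) with Itgb1 (3.77) and with Itgb4 (0.72). Itga3 with Itgb1 (0.56 and 3.77) and Itgav with Itgb5 (-0.42 and -2.22) shared a sign. The 2 oligonucleotides of Itga6 disagreed in sign at 4 h, at -0.66 and 0.43, so its side of 0 is not settled. Centred on abundant transcripts, Itga3 (-1.28) also stood opposite Itgb1 (1.92) at 4 h, while Itga6 (-1.96) and Itgb4 (-1.12) shared a sign.

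The start regions of both genes are given so that the letters before each can be read beside those ratios. They are RefSeq windows of GRCm38.p6, Itgb1 at chr8:128685404-128685703 on the plus strand and Itga5 at chr15:103366742-103367041 on the minus strand, with the same motifs in capitals. Sparc, higher at both times, is added at chr11:55420031-55420330 on the minus strand.
Itgb1: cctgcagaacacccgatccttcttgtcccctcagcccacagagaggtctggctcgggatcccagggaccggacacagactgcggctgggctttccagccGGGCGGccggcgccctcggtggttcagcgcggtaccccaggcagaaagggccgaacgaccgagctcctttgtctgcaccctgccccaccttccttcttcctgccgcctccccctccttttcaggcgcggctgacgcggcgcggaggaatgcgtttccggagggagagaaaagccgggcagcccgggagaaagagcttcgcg
Itga5: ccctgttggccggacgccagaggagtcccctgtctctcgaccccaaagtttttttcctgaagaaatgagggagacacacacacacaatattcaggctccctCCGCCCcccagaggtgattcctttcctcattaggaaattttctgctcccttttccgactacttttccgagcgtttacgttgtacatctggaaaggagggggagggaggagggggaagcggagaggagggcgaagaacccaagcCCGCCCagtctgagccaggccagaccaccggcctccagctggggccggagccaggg
Sparc: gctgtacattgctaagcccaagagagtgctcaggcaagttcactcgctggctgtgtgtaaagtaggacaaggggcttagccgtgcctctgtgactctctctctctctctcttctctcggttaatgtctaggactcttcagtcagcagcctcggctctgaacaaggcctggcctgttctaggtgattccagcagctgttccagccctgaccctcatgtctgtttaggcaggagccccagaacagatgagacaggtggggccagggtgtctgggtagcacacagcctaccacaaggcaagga
Itgb1 held 1 GC box, Itga5 held 2, and Sparc held none of the 5 motifs.

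Itgb5, which joins Itgav in a vitronectin receptor, gave -0.60 and -0.36 at 24 h and -0.89 and -3.54 at 4 h. Its duplicate spots agreed within each 4 h array, at -0.90 and -0.88 and at -3.54 and -3.55, so the spread of its mean (-2.22 ± 1.88) lay between the arrays. Itgav itself gave -0.22 and 0.16 at 24 h and -0.76 and -0.08 at 4 h, and Itgb3, its other endothelial partner, 0.09 and 0.48 at 24 h and -0.09 and 0.01 at 4 h. Itgal, the alpha subunit of the leukocyte integrin LFA-1, gave -0.66 and -0.13 at 24 h and -1.58 and -2.21 at 4 h, while its partner Itgb2 had means of 0.06 at 24 h and -0.14 at 4 h. The 2 oligonucleotides of Itgb2 disagreed in sign at 4 h, at 0.27 and -0.55. The leukocyte list fixed for this work had 7 of 8 markers measured. At 24 h 1 was higher and 0 lower, beside 1.68% and 0.799% of all genes. At 4 h there were 0 of either, beside 8.74% and 5.77%. Median ratios of the list were 0.38 at 24 h and 0.01 at 4 h, and its part in the Itgal value was not tested.

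Itgb7 did not meet the rule at either time. Its 4 h mean of -2.42 ± 3.03 came from 1 spot at -8.77, beside spots of -0.36, -0.33 and -0.21, and its 24 h arrays gave -0.06 and -0.03. Itgb4 gave -2.54 and 1.003 at 24 h, with duplicates that agreed within each array. It was the only one of the 101 genes that met the rule when the reversed array was left unturned at that time, against 1.7% of all genes, and at 4 h 0 of the set did, against 1.83%. The other alpha subunits, with the matrix-binding Itga2, Itga3, Itga6, Itga7 and Itga8, had means between -0.36 and 0.25 at 24 h and between -0.42 and 0.56 at 4 h. The oligonucleotides of Itga6 disagreed in sign at each time, at -0.76 and 0.04 at 24 h and at -0.66 and 0.43 at 4 h. So did those of Itga7, at -0.15 and 0.63 at 24 h and at 0.93 and -0.33 at 4 h. The 0.93 rests on 1 spot at 4.16 on the reversed 4 h array, whose duplicate read -0.45.

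Of the genes that matched in spelling only, Itgb3bp, a kinetochore protein also known as CENP-R, was higher at 4 h at 0.82 and 1.85, against 0.30 and 0.00 at 24 h. On the reversed 4 h array its spots read 4.10 and -0.41, so the call rests on 1 spot. Itgb1bp1, a cytoplasmic partner of the Itgb1 tail, gave 0.12 and 0.50 at 24 h and 0.97 and 0.27 at 4 h, and Itgb1bp2, a muscle protein, had means of 0.01 at 24 h and -0.61 at 4 h.

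**Figure D4:**
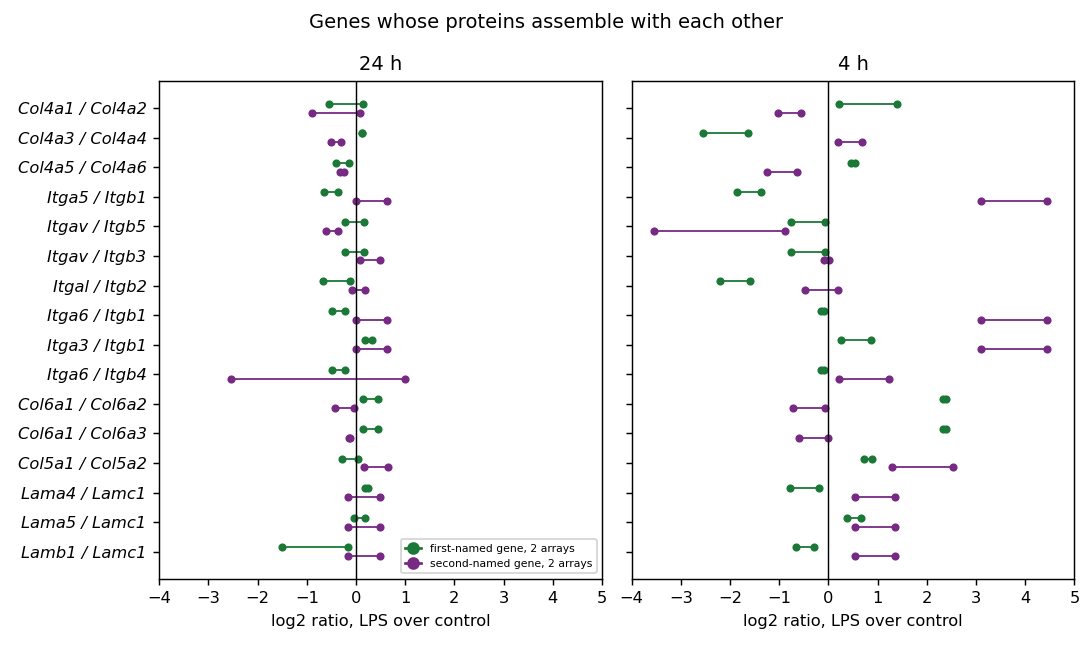
Log2 ratio of LPS over control on the 2 arrays (joined points) of genes whose proteins assemble with each other, at 24 h (left) and 4 h (right), the first-named gene in green and the second in purple. Itga5 and Itgb1, Col6a1 and Col6a2, and Col4a3 and Col4a4 lie far apart at 4 h and closer together at 24 h. Ranges did not overlap for 14 of the 16 pairs at 4 h and for 8 at 24 h. Some genes stand in several pairs, and no such share was computed for other pairs of genes.

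The times were compared by a rule in which the means differed by at least 1 and both arrays of one time lay beyond both of the other. By it, 6 of the 101 had the higher ratio at 24 h, against 8.23% of all genes, and 12 the lower one, against 9.99%. Those shares of the set, 5.94% and 11.9%, were again near those of all genes. Centred on abundant transcripts, the same rule gave 80 of the set higher and 2 lower at 24 h, beside 78.4% and 1.03% of all genes. The largest downward differences, 24 h minus 4 h, were those of Lox at -3.69, Itgb1 at -3.46, Sparc at -2.69, Col3a1 at -2.54 and Col6a1 at -2.07. Col9a2, Col5a2, Col1a1, Mmp14, Itgb3bp, Loxl2 and Col4a1 followed, between -1.64 and -1.01. Upward the differences were those of Itgb7 at 2.38, Col4a3 at 2.22, Itgb5 at 1.74, Itgal at 1.498, Itga5 at 1.10 and Fbln5 at 1.03. That of Itgb7 rests on its 1 spot at -8.77 and is 0.23 with the reversed 4 h array alone. Whether the times shared control RNA is not given in the sources used here.

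Other genes of matrix assembly and adhesion were taken from a list of 46, of which 39 were measured. Of these, 1 was higher and 0 lower at 24 h, beside 1.68% and 0.799% of all genes, and 10 were higher and 2 lower (Fbn2 and Lum) at 4 h, beside 8.74% and 5.77%. Centred on abundant transcripts, the list had 3 higher (P4hb, Zyx and Timp3) and 25 lower at 4 h, beside 1.02% and 80.5% of all genes. Its medians were 0.03 at 24 h and 0.42 at 4 h. Among genes of collagen processing, 3 of 9 were higher at 4 h. They were P4hb, a subunit of prolyl hydroxylase, at 0.32 ± 0.07 at 24 h and 4.31 ± 1.26 at 4 h, Bmp1, which removes the procollagen C-propeptide, at -0.34 and 1.59, and its enhancer Pcolce at 0.34 and 1.08, of which Bmp1 (-0.26) and Pcolce (-0.77) turned below 0 with that centring. P4ha1, P4ha2, Plod1, Plod2, Plod3 and Serpinh1, the collagen chaperone, did not meet the rule, with 4 h means between -0.27 and 0.89. At integrin adhesions, Zyx had means of -0.39 at 24 h and 3.59 at 4 h and Ilk of 0.44 and 1.43 (-0.42 at 4 h with that centring), while Vcl, Tln1 and Pxn had 4 h means of 0.52, 0.46 and -0.62.

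Abundant transcripts were higher at 4 h as well. The 28 measured of 33 abundant transcripts had a median ratio of 0.12 at 24 h and 1.94 at 4 h. At 4 h 17 were higher and 0 lower, beside 8.74% and 5.77% of all genes. Centred on them, which lowers every ratio by 2.34 and 1.35 on the 4 h arrays and by 0.09 on each 24 h array, Sparc (2.02), Itgb1 (1.92) and Lox (1.58) were still past the rule at 4 h. Col3a1 (1.20), Col6a1 (0.52) and Col5a2 (0.06) stayed above 0, and Col1a1, Col16a1, Mmp14 and Itgb3bp fell below it. Of 10 measured mural and fibroblast markers, 4 (Pdgfra, Dcn, Acta2 and S100a4) were higher and 1 (Lum) was lower at 4 h, beside 8.74% and 5.77% of all genes. At 24 h 1 was higher, beside 1.68%. Their medians were 0.12 at 24 h and -0.03 at 4 h. Dcn and Lum stand in this list and in the one of 46. The part of transcript abundance or of these cells in the collagen, Sparc, Lox and Itgb1 ratios was not tested.

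A fit across both times asked which genes moved the same way at 24 h and 4 h, with the times as 2 RNA pairs. With limma on the 2 pair means and Benjamini-Hochberg adjustment, 0 of the 101 genes and 0% of all 11138 were called, and the smallest adjusted p among the set was 0.761. At an unadjusted p under 0.05 the same limma fit gave 4 genes (3.96%), against 513 of all genes (4.61%): Col20a1 at -1.73 ± 0.35 (SE), Col2a1 at -1.20 ± 0.32, Sparc at 2.53 ± 0.75 and Col16a1 at 0.98 ± 0.29. Each had the same sign on all 4 arrays. With the 4 arrays taken as independent, limma also called 0 of the set, with 11 (10.9%) at an unadjusted p under 0.05, against 11.2% of all genes. On simulated data, with noise drawn from the spread between the 24 h and 4 h means of genes, the main fit called no changed gene. That spread includes any real difference between the times. The lack of calls says nothing about whether these genes moved.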

How the data were processed

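The deposited table gives log2 ratios of the 2 dyes for 32448 spots on each of 4 arrays. The log2 scale was settled from the values: on each array, 99.96% of spots or more had 2 to the power of their size at a multiple of 0.01, within 2 hundredths of a step. The column medians are 0; the sources used here do not name the scanner, the background correction or the normalization. Per the labels, RNA was amplified and the dyes were exchanged on the second array of each time. As deposited, the arrays of a time correlated at -0.04 for 24 h and -0.23 for 4 h, so values were read as dye over dye. Spots with 1 symbol in the platform annotation (24344; 98 had several and 8006 none listed) were averaged by gene, after each array was centred on its median and the reversed arrays turned. Of the 101 genes, 95 rest on 1 oligonucleotide and 6 on 2; all 101 matched the RefSeq gene table of GRCm38.p6 with unchanged symbols. Spots at a ratio of exactly 1 were kept. Every gene of the set may be named; those past the rule have values by array. Genes and lists were chosen with earlier results of these data known. The shared fit used limma 3.58.1 in R 4.3.3 (lmFit, eBayes, 1 residual degree of freedom) at an adjusted p of 0.05. On simulated data the fold rules recovered the changes made. The limma fit recovered them with even noise but none with noise drawn from the spread between the 24 h and 4 h means. Protein sequences were not used here.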

Additional observations from a re-analysis of the deposited data

Results flagged for a closer look

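For 13 of the 101 genes (12.9%) both arrays at 24 h lay on one side of 0 and both at 4 h on the other, as for 1455 of all 11138 genes (13.1%). With 1 RNA pair per time the difference was not tested. Given as 24 h minus 4 h on the log2 scale, it was positive for Col4a3 (2.22), Lama1 (0.85), Lamb3 (0.79), Lama4 (0.71), Col10a1 (0.53), Mmp23 (0.53) and Mmp8 (0.46). It was negative for Col9a2 (-1.64), Loxl2 (-1.09), Col4a4 (-0.85), Col4a5 (-0.77), Mmp16 (-0.63) and Mmp2 (-0.40). Over all 10 laminin chains the difference was negative for 6. Col4a3 stands opposite its neighbour Col4a4.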

How the results depend on the processing

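No paired analysis was possible because the labels give no replicate numbers and the arrays of a time are taken as dye exchanges of 1 RNA pair. Some alternatives could hardly move the values of called genes. Leaving arrays uncentred changed none, as column medians are 0, nor did the first oligonucleotide alone, as each called gene has 1. Leaving out spots at a ratio of exactly 1 changed only Col20a1 at 4 h. Of the 144 values of called genes under the alternatives, these included, 117 were within 1.5 times of the reported value. Of the rest, 23 kept the sign but not the size, and 4 turned in sign. The 4 were those of Col1a1 (-0.65), Col16a1 (-0.61), Mmp14 (-0.60) and Itgb3bp (-0.52) at 4 h, centred on abundant transcripts. That centring gave 3 genes higher and 86 lower at 4 h, a median of -1.92 at 4 h, and 80 higher and 2 lower at 24 h than at 4 h. Quantile normalization gave 2 higher at 24 h. A mean of at least 1.5-fold gave 8 lower at 4 h, and 18 higher and 19 lower at 24 h than at 4 h. A mean of at least 3-fold gave 0 higher and 0 lower at 24 h, 6 higher at 4 h, and 3 higher and 6 lower at 24 h than at 4 h. Asking each spot to be at least 1.5-fold the same way, chosen after seeing the data, left 1 lower at 24 h. Without one array, 1 to 2 genes were higher and 2 to 8 lower at 24 h, 11 to 14 higher and 9 to 10 lower at 4 h, and 5 to 10 higher and 11 to 16 lower at 24 h than at 4 h. The medians ran between -0.0835 and 0.0479 at 24 h and between -0.0903 and 0.0102 at 4 h. Without the first 24 h array, Col2a1 and Col20a1 were no longer lower at 24 h. Without the first 4 h array Mmp14, and without the second Itgb3bp, Col20a1 and Itgb5, lost their 4 h calls. The cause was not tested. Shares of all genes were not computed for the changed fold limits, the demand on each spot or the dropped arrays. Those counts are therefore not read as a result about the set. With 2 arrays per time and no intensities, precision rests on array agreement alone.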
